A study of Saccharomyces cerevisiae with 22 samples.

Results

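The mRNAs described here encode the nuclear part of the respiratory chain and the ATP synthase of budding yeast. The 37 genes were chosen by systematic name, 9 for cytochrome c oxidase, 9 for the cytochrome bc1 complex, 11 for the ATP synthase, 4 for succinate dehydrogenase, 2 for cytochrome c and 2 for NADH dehydrogenases, out of 6005 protein-coding genes among the 6696 listed in every file. The rule used no measured value. The data were RNA-Seq and ribosome profiling of *Saccharomyces cerevisiae* X2180-1a, collected to ask which mRNAs autophagy brings to the vacuole. All 22 libraries came from cells in YPD, a rich glucose medium, either growing or with 0.2 µM rapamycin, an inhibitor of TORC1 that induces autophagy. In the vacuole experiment, 12 libraries were made from total lysates and from vacuole fractions isolated by flotation. Of these, 6 are labelled *rny1*Δ (*rny1*Δ::natNT2, lacking the vacuolar RNase) and 6 are labelled *rny1*Δ *atg2*Δ (*rny1*Δ::natNT2 with *atg2*Δ::kanMX6, a strain that also lacks a protein needed for autophagy), called the double mutant below. Each strain had 1 growing library and 2 libraries at 3 h of rapamycin for each kind of RNA. In the WT experiment, 5 RNA-Seq and 5 footprint libraries were made, 2 of each kind from growing cells and 1 of each kind at 1, 2 and 3 h of rapamycin. By the labels the vacuole experiment has no library with intact *RNY1*, and no rapamycin time point of WT cells has a replicate. The paper's methods also differ between the experiments. RNA of the vacuole experiment was depleted of rRNA, while WT RNA came from the centrifuged lysate used for footprints, with no depletion named.

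Respiring yeast pass electrons from NADH dehydrogenases and succinate dehydrogenase through the cytochrome bc1 complex and cytochrome c to cytochrome c oxidase, and the ATP synthase uses the proton gradient so formed. Budding yeast has no proton-pumping complex I, and single-subunit NADH dehydrogenases take its place. Most subunits are encoded in the nucleus, translated in the cytosol and imported, while a few core subunits are encoded and translated in mitochondria. On glucose, transcription of the nuclear genes is repressed, and the Hap2/3/4/5 complex activates many of them.

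Between 9156333 and 22097523 counts lay on listed genes in the libraries of the vacuole experiment, apart from the second vacuole library labelled as the double mutant after rapamycin, which had 535462. WT RNA-Seq libraries had 10361721 to 14917164 counts and footprint libraries 2657480 to 20413301. *ATG2* had 0 to 79 counts where the label gives its deletion and 851 to 1448 in the other 6 libraries of the vacuole experiment. *RNY1* had counts in all 12 of these libraries, at 15.2 to 40.5 CPM (counts relative to library size). In WT RNA-Seq it had 5.23 and 6.01 CPM in growing and 76.2 to 106 in rapamycin-treated cells. The labelled libraries thus lay below treated and above growing WT cells. The deletion was not visible as an absence of counts, and strains are named below as labelled. Mitochondrially encoded RNA, of 19 genes, made up 0.839 to 6.07% of counts on protein-coding genes in total lysates and 0.0170 to 1.28% in vacuole fractions. *QCR9* (YGR183C) had 0 counts in all 12 libraries of the vacuole experiment, so 36 members were tested there and 37 in WT cells.

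The 37 mRNAs together took a small share of the counts on protein-coding genes in growing cells, and that share was larger after rapamycin in both kinds of RNA of every strain. In total lysates labelled *rny1*Δ they held 0.370% of the counts in growing cells and 1.39 and 1.49% after 3 h. In total lysates labelled as the double mutant the share was 0.356% in growing cells and 1.29% in both treated libraries. Neither strain's treated values overlapped with its growing value. Vacuole fractions ran close to the lysates, with 0.326% before and 1.36 and 1.37% after treatment in those labelled *rny1*Δ, and 0.307% before and 1.20 and 1.22% after in those labelled as the double mutant. In WT RNA-Seq the share was 0.284 and 0.319% in the 2 growing cultures and 0.725, 1.04 and 1.14% at 1, 2 and 3 h. WT footprints on the same genes held 0.326 and 0.801% in growing cells and 0.959, 1.36 and 1.64% at 1, 2 and 3 h. A share says nothing of the amount of RNA per cell, so more of these mRNAs and less of others cannot be told apart. The 2 growing footprint libraries lay far apart where the RNA of the same cultures differed little. The ATP synthase was the largest contributor in all 22 libraries, from 0.169 and 0.190% of counts in growing WT RNA-Seq to 0.640% at 3 h, and cytochrome c the smallest, from 0.00270 and 0.00301% to 0.00749%.

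**Figure D1:**
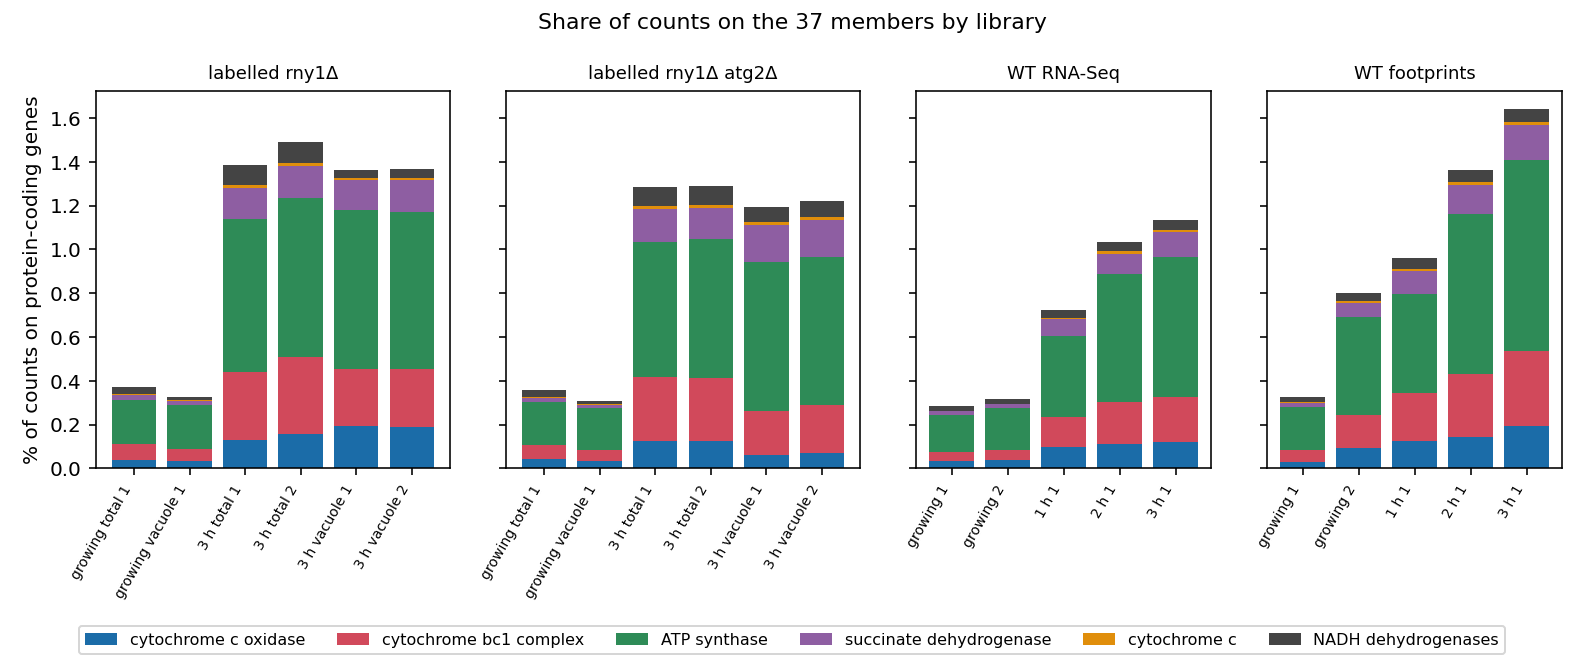
Percent of the counts on protein-coding genes that fell on the 37 members, by library, with bars stacked by complex (numbers after the condition are replicates). Every treated bar is taller than the growing bars of its strain and RNA type, and growing footprint library 2 stands at 0.801% against 0.326% in library 1.

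Levels of different mRNAs were compared per codon, as TPM (counts per codon relative to the library's sum over genes) of WT RNA-Seq. In the 2 growing cultures the mRNA of *ATP2* (YJR121W), the catalytic beta subunit of the ATP synthase, was the most abundant member at 409 and 479 TPM, followed by *ATP1* (YBL099W), the alpha subunit, at 251 and 298 TPM, and *ATP17* (YDR377W), a subunit of the membrane part, at 226 and 207 TPM. The growing values of these 3 did not overlap. At the other end, *CYC7* (YEL039C), the minor isoform of cytochrome c, stood at 1.83 and 2.28 TPM, below all other members. The next was *NDI1* (YML120C), the internal NADH dehydrogenase, at 19.7 and 24.7 TPM. *SDH1* (YKL148C) and *SDH2* (YLL041C), the flavoprotein and iron-sulfur subunits of succinate dehydrogenase, followed at 26.2 and 33.9 TPM and 26.5 and 37.5 TPM, and the values of the last 2 overlapped. The median member was at 92.6 and 104 TPM. The spread over members (SD of log2 TPM) was 1.29 and 1.22 in growing cells and 0.868 at 3 h of rapamycin.

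Most of these mRNAs were higher after rapamycin in total lysates of both strains and in WT cells, and no member was called lower. No untreated culture was sampled at 1, 2 or 3 h, so the treatment was not separated from the time in culture. An mRNA was called when its log2 change was at least 1 in size with an adjusted p-value under 0.01 in edgeR's quasi-likelihood test over all genes. Values of single libraries are TMM-normalized CPM, scaled within an experiment and assay, and errors are standard errors (SE) of the fit. In total lysates labelled *rny1*Δ, 30 of 36 members rose and 0 fell, where 21.3% of all 5753 genes tested rose and 22.9% fell. In those labelled as the double mutant, 26 of 36 rose and 0 fell, against 23.4 and 23.9% of all genes. The median member changed by 1.78 and 1.64 on the log2 scale, while the medians over all genes were −0.05 and −0.02. In WT RNA-Seq, 12 of 37 members rose at 1 h, 21 at 2 h and 24 at 3 h, with 0 falling at any time. The shares of all 5927 genes that rose were 14.5, 11.2 and 11.7%, and those that fell 16.3, 14.5 and 15.9%. Member medians in WT were 0.74, 1.13 and 1.18. The lysate calls rest on the spread between treated replicates, since each growing lysate was 1 library. The WT calls rest on the spread between the 2 growing cultures alone. When footprint libraries shared the fit, 1, 0 and 0 members passed at 1, 2 and 3 h. The share of all genes called in that shared fit is not given. The replicate spread that edgeR estimated over all genes, as a coefficient of variation, was 0.217 there, against 0.0705 for RNA-Seq alone. What part this larger spread played in the lower member counts was not tested.

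**Figure D2:**
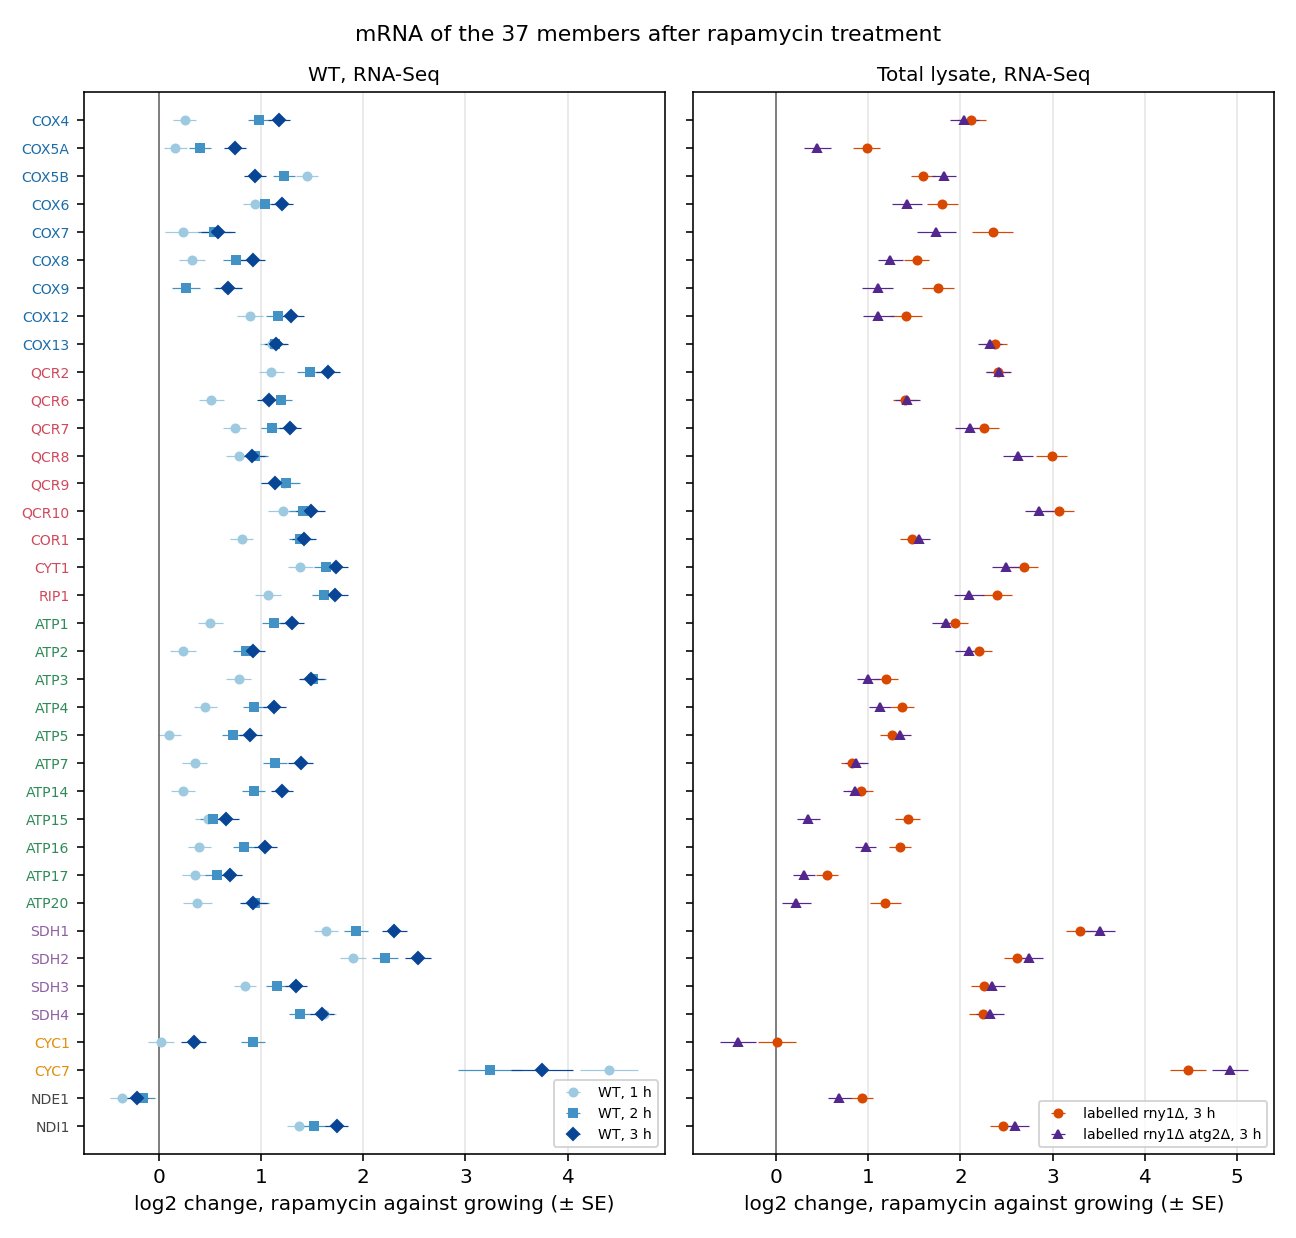
Log2 change of each member's mRNA (points, with SE bars) at 1, 2 and 3 h of rapamycin in WT cells, left, and at 3 h in total lysates of the strains labelled *rny1*Δ and the double mutant, right, with names coloured by complex. *CYC7* lies farthest right in both panels, at 3.75 in WT and 4.47 and 4.92 in the lysates, and *NDE1* lies left of 0 in WT only.

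All 4 subunits of succinate dehydrogenase, which links the citric acid cycle to the respiratory chain, rose at 3 h in WT and in both strains. Their median log2 change was 2.43 in lysates labelled *rny1*Δ, 2.55 in those labelled as the double mutant and 1.95 in WT at 3 h. *SDH1* mRNA, which carries the FAD-binding subunit (chromosome XI, 169207 to 171129, minus strand, sacCer3), was at 67.9 CPM before and 657 and 676 CPM after treatment in *rny1*Δ, and at 53.1 CPM before and 646 and 566 CPM after in *rny1*Δ *atg2*Δ. Treated lysates lay far above growing ones in both strains, with log2 changes of 3.30 ± 0.16 and 3.51 ± 0.16. *SDH2* mRNA, for the iron-sulfur subunit, was at 31.8 and 40.5 CPM in growing cells and 136, 168 and 210.1 CPM at 1, 2 and 3 h in WT RNA-Seq. Its change at 3 h was 2.53 ± 0.13 (edgeR, adjusted p = 1.6e-11), and all 3 treated values lay above both growing ones. The membrane anchors *SDH3* (YKL141W) and *SDH4* (YDR178W) changed by 1.34 ± 0.11 and 1.60 ± 0.11 in WT at 3 h. *SDH1*, *SDH3* and *SDH4* have paralogues in the yeast genome, as do *CYC1* (YJR048W), *CYC7*, *COX5A* (YNL052W), *COX5B* (YIL111W) and *NDE1* (YMR145C), and the effect of reads shared with them was not tested.

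Nearly all mRNAs of the cytochrome bc1 complex, which passes electrons from ubiquinol to cytochrome c, rose. All 8 members tested rose in the lysates of both strains, with medians of 2.40 and 2.26, and 5, 8 and 8 of 9 rose in WT at 1, 2 and 3 h, with medians of 1.07, 1.38 and 1.42. Of the catalytic subunits, *CYT1* (YOR065W), cytochrome c1, changed by 2.68 ± 0.16, 2.49 ± 0.15 and, in WT at 3 h, 1.73 ± 0.12. *RIP1* (YEL024W), the Rieske iron-sulfur protein, changed by 2.40 ± 0.16, 2.09 ± 0.16 and 1.72 ± 0.12. The core proteins *COR1* (YBL045C) and *QCR2* (YPR191W), which carry no redox centre, rose by 1.47 ± 0.12 and 2.41 ± 0.13 in lysates labelled *rny1*Δ. Of the small subunits, *QCR10* (YHR001W-A) had the highest value there, 3.07 ± 0.16, and *QCR6* (YFR033C) the lowest, 1.40 ± 0.13. *QCR7* (YDR529C), a subunit beside cytochrome b, was at 2.25 ± 0.17 in those lysates. In WT at 3 h only *QCR8* (YJL166W), at 0.91 ± 0.13, stayed short of a log2 change of 1. *QCR9*, without counts in the lysates, had a change of 1.14 ± 0.13 in WT, from 21.7 and 20.5 CPM in growing cells to 46.3 CPM at 3 h.

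Of cytochrome c oxidase, 8 of 9 nuclear subunits rose in the lysates of each strain, with medians of 1.75 and 1.42, and 2, 4 and 4 of 9 rose in WT at 1, 2 and 3 h, with medians of 0.66, 0.98 and 0.94. *COX13* (YGL191W), a peripheral subunit, had the highest value in the lysates at 2.38 ± 0.13 and 2.32 ± 0.13, and *COX12* (YLR038C) the highest in WT at 3 h at 1.29 ± 0.12. *COX4* (YGL187C), which binds zinc, *COX6* (YHR051W), *COX7* (YMR256C) and *COX9* (YDL067C) changed by 2.12 ± 0.16, 1.80 ± 0.17, 2.35 ± 0.22 and 1.75 ± 0.17 in lysates labelled *rny1*Δ, and *COX12* and *COX8* (YLR395C) by 1.41 ± 0.17 and 1.52 ± 0.14. The 9 members spread over 0.98 to 2.38 in lysates labelled *rny1*Δ and 0.58 to 1.29 in WT at 3 h.

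Subunit 5 of the oxidase has 2 isoforms, and their mRNAs behaved differently. *COX5A* (chromosome XIV, 531725 to 532186) is the form of aerobic cells and *COX5B* (chromosome IX, 155222 to 155765) is known as the form induced by low oxygen. *COX5A* mRNA was at 68.6 CPM before and 119 and 152 CPM after treatment in *rny1*Δ, and at 71.2 CPM before and 102 and 91.7 CPM after in *rny1*Δ *atg2*Δ. *COX5B* mRNA was at 44.6 CPM before and 131 and 139 CPM after treatment in *rny1*Δ, and at 40.6 CPM before and 147 and 140.3 CPM after in *rny1*Δ *atg2*Δ. *COX5B* rose in both strains, by 1.59 ± 0.13 and 1.82 ± 0.13, while *COX5A*, at 0.98 ± 0.15 and 0.45 ± 0.14, did not pass. *COX5A* in lysates labelled *rny1*Δ lay at the edge of the call and passed with library totals, with DESeq2 and without the first replicate of either strain. In WT RNA-Seq, *COX5A* was at 75.3 and 71.7 CPM in growing cells and 81.97, 97.1 and 123 CPM at 1, 2 and 3 h. *COX5B* was at 61.7 and 60.5 CPM in growing cells and 167, 143 and 117 CPM at 1, 2 and 3 h. *COX5B* was thus highest at 1 h, where its change was 1.45 ± 0.11, against 0.94 ± 0.11 at 3 h, and *COX5A* was highest at 3 h, with 0.75 ± 0.11. The coding sequences are of similar length, so the pair can be given as a share: *COX5B* took 45.05 and 45.77% of the pair's counts in growing WT cells and 67.0, 59.5 and 48.8% at 1, 2 and 3 h. In lysates the share was 39.4% before and 52.4 and 47.7% after treatment for *rny1*Δ, and 36.3% before and 59.0 and 60.5% after for the double mutant. Treated values lay above growing ones in all 3 strains.

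The 2 forms of cytochrome c, the soluble carrier between the bc1 complex and the oxidase, were farther apart than those of subunit 5. *CYC7* (chromosome V, 79636 to 79977), a form known to be favoured under low oxygen or stress, was at 4.65 CPM before and 97.9 and 108 CPM after treatment in *rny1*Δ, and at 3.82 CPM before and 120.04 and 112 CPM after in *rny1*Δ *atg2*Δ. *CYC1* (chromosome X, 526335 to 526664), the main form, was at 24.5 CPM before and 27.7 and 21.4 CPM after treatment in *rny1*Δ, and at 25.5 CPM before and 15.2 and 23.7 CPM after in *rny1*Δ *atg2*Δ. *CYC7* had the largest change of the members in the lysates, 4.47 ± 0.20 and 4.92 ± 0.19 (edgeR, adjusted p = 6.8e-13 and 1.3e-13). *CYC1* had the lowest, 0.01 ± 0.21 (edgeR, adjusted p = 0.96) and −0.41 ± 0.20, and in lysates labelled *rny1*Δ its sign turned without the first replicate, at −0.17, and with a length offset, at −0.04. In WT, *CYC7* was at 0.890 and 0.993 CPM in growing cells and 20.3, 9.03 and 12.9 CPM at 1, 2 and 3 h. *CYC1* was at 37.03 and 37.9 CPM in growing cells and 38.1, 70.9 and 47.4 CPM at 1, 2 and 3 h. *CYC7* counts in growing WT cells were 8 and 11, so the size of its change there, 3.75 ± 0.30 at 3 h, rests on few reads. *CYC7* took 16.0% of the pair's counts in growing lysates labelled *rny1*Δ and 78.0 and 83.5% in treated ones, and 13.0% before and 88.8 and 82.6% after in those labelled as the double mutant. In WT the share was 2.35 and 2.55% in growing cells and 34.8, 11.3 and 21.3% at 1, 2 and 3 h. *CYC7* mRNA thus outnumbered that of *CYC1* in treated lysates of both strains and in no WT library.

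For the ATP synthase, 8 of 11 members rose in lysates labelled *rny1*Δ and 4 of 11 in those labelled as the double mutant, with medians of 1.25 and 0.97, and 0, 3 and 6 of 11 rose in WT at 1, 2 and 3 h, with medians of 0.38, 0.93 and 1.04. *ATP2*, the beta subunit, changed by 2.20 ± 0.15 and 2.09 ± 0.15, and *ATP1*, the alpha subunit, by 1.94 ± 0.15 and 1.84 ± 0.14. In WT at 3 h the highest value was that of *ATP3* (YBR039W), the gamma subunit of the rotor, at 1.49 ± 0.12, with *ATP1* at 1.30 ± 0.12. The stator subunits *ATP4* (YPL078C), *ATP5* (YDR298C) and *ATP7* (YKL016C) changed by 1.37 ± 0.13, 1.25 ± 0.13 and 0.82 ± 0.13 in lysates labelled *rny1*Δ. *ATP14* (YLR295C), subunit h, and *ATP16* (YDL004W), the delta subunit of the central stalk, were at 0.92 ± 0.13 and 1.34 ± 0.12. *ATP17*, a small subunit of the membrane part, was at 90.1 CPM before and 129.99 and 135 CPM after treatment in *rny1*Δ, and at 95.8 CPM before and 119 and 117 CPM after in *rny1*Δ *atg2*Δ. Its changes, 0.56 ± 0.12 and 0.30 ± 0.12, did not pass, and it was the member with the lowest value after *CYC1* in lysates labelled *rny1*Δ. *ATP15* (YPL271W) and *ATP20* (YPR020W), the epsilon and g subunits, passed in lysates labelled *rny1*Δ, at 1.43 ± 0.13 and 1.19 ± 0.17, and were at 0.35 ± 0.12 and 0.22 ± 0.16 in those labelled as the double mutant. Their growing levels differed between the strains, with *ATP15* at 33.5 and 50.8 CPM, and each growing lysate is 1 library.

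The 2 NADH dehydrogenases differed in WT cells. *NDI1*, which faces the matrix (chromosome XIII, 28266 to 29807), changed by 2.46 ± 0.15 and 2.59 ± 0.15 in the lysates and by 1.74 ± 0.11 in WT at 3 h. *NDE1*, which faces the intermembrane space (chromosome XIII, 554793 to 556475), was at 238 and 241 CPM in growing cells and 186, 215 and 206 CPM at 1, 2 and 3 h in WT RNA-Seq. Its changes were −0.36 ± 0.12, −0.16 ± 0.11 and −0.22 ± 0.11, none of them called, and it was the only member below 0 at 3 h, a sign that turned to 0.52 when library totals replaced TMM. In the lysates *NDE1* was at 239 CPM before and 438 and 469 CPM after treatment in *rny1*Δ, and at 247 CPM before and 394 and 403 CPM after in *rny1*Δ *atg2*Δ. These changes, 0.93 ± 0.12 and 0.69 ± 0.12, were above 0 in both strains and short of the call.

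How many WT members passed depended on the scaling. With total counts on protein-coding genes in place of TMM, a choice made after seeing the data, the median of all genes stood at 0.68, 0.75 and 0.73 at 1, 2 and 3 h in WT RNA-Seq, against 0.01, 0.02 and −0.01 with TMM, and 28, 35 and 36 members rose at 1, 2 and 3 h. Calls over all genes then split into 2125 up and 382 down at 3 h, against 691 and 945 with TMM, into 2046 and 611 at 1 h, against 857 and 969, and into 2159 and 459 at 2 h, against 663 and 859. Relative to the median of all genes the member median was 1.19 under TMM, DESeq2 size factors and library totals alike at 3 h. In total lysates these scalings moved the median of all genes by less than 0.1.

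After 3 h of rapamycin no member passed the threshold between the lysates of the 2 strains. In the direct comparison of *rny1*Δ with the double mutant lysates, 0 of 36 members were called by edgeR, where 0.174% of all genes were higher and 0.365% lower. DESeq2 also called 0. At an unadjusted p under 0.05, 16 members passed in edgeR and 18 in DESeq2, as did 1407 and 780 of all 5753 genes. The median difference was 0.20 and 31 of 36 values were above 0, ranging from −0.18 ± 0.11 for *CYC7* to 0.63 ± 0.13 for *ATP20*. The second treated lysate labelled *rny1*Δ was higher than the first for 32 of 36 members, by a median of 0.17, which is a spread between replicates of about the same size.

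Counts in the vacuole fraction give its composition, not how much RNA it held. In growing cells, with 1 pair of libraries a strain and no test, the log2 ratio of vacuole to lysate had a member median of −0.16 for *rny1*Δ and −0.30 for the double mutant, beside −0.06 and −0.07 over all genes. *NDE1* had the lowest ratio in both, −1.22 and −1.26, and *NDI1* was at −0.71 and −0.66. After rapamycin the vacuole to lysate ratio of *rny1*Δ had a member median that lay −0.05 from the median of all genes. There 1 member was higher in the vacuole fraction and 4 lower, where 11.2% of all genes were higher and 7.11% lower. The 1 was *ATP15*, at 1.01 ± 0.10, and the 4 were *NDE1*, *CYC7*, *CYT1* and *NDI1*, at −1.68 ± 0.10, −1.49 ± 0.11, −1.37 ± 0.11 and −1.37 ± 0.11. The call of *ATP15* was lost with DESeq2 size factors, with DESeq2's test, with the length offset and without the first treated replicate of either strain, where 0 members were higher. For the double mutant the member median was −0.42, beside −0.02 over all genes, with *SDH1* higher, at 1.07 ± 0.11, and *COX13*, *COX7* and *QCR10* lower, at −1.26 ± 0.11, −1.19 ± 0.19 and −1.08 ± 0.13. Of all genes 1.81% were higher and 1.48% lower in that strain. With library totals 4 members were higher and 4 lower for *rny1*Δ and 0 and 7 for the double mutant, and calls over all genes split into 980 up and 238 down, against 646 and 409, and into 51 and 235, against 104 and 85.

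Vacuolar enrichment was taken as the change of the vacuole to lysate ratio from growing to rapamycin-treated cells. Few members were called in the strain labelled *rny1*Δ. There 3 of 36 were called enriched and 2 depleted, where 12.1% of all genes were enriched and 7.98% depleted, and the member median was 0.13 beside 0.08 for all genes. *ATP17*, *CYC1* and *ATP7* were enriched, at 1.48 ± 0.17, 1.08 ± 0.28 and 1.01 ± 0.17, and *CYT1* and *CYC7* were depleted, at −1.43 ± 0.20 and −1.06 ± 0.31. In the strain labelled as the double mutant, *NDE1* alone was called enriched, at 1.06 ± 0.17, and 0 members depleted, against 2.26 and 1.46% of all genes, with a member median of −0.09. Without the shallow vacuole library labelled as the double mutant, 2 members were enriched and 1 depleted for *rny1*Δ, and the same held without the first replicate of the double mutant. The share of all genes called in those fits is not given. With library totals 6 members were enriched and 1 depleted for *rny1*Δ and 0 and 1 for the double mutant, while the median of all genes moved to 0.39 and −0.13 and its calls to 1190 up and 197 down, against 697 and 459, and to 77 and 148, against 130 and 84.

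The difference of enrichment between the strains, *rny1*Δ minus the double mutant, went both ways among the members. It was called above 0 for 5 and below 0 for 6 of 36, where 9.26% of all genes were above and 8.03% below, and its median was 0.48 for the members and 0.03 for all genes. The 5 above 0 were *COX5B*, *COX8* and *COX13* of the oxidase and *ATP7* and *ATP17* of the ATP synthase. The 6 below 0 were *ATP1* and *ATP2* of the ATP synthase, the NADH dehydrogenases *NDE1* and *NDI1*, *SDH1* and *CYT1*. Calls over all genes split into 454 up and 576 down with DESeq2 size factors and into 1242 and 130 with library totals, against 533 and 462 with TMM, and the members into 4 and 6, and 15 and 2. Under all 3 scalings the member median lay 0.44 above the median of all genes. For the fits that left out libraries, given next, the share of all genes called is not given. Without the first replicate of the double mutant, where the shallow library alone stands for the treated vacuole fraction, 0 members were above and 2 below, and without the shallow library 5 and 4.

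**Figure D3:**
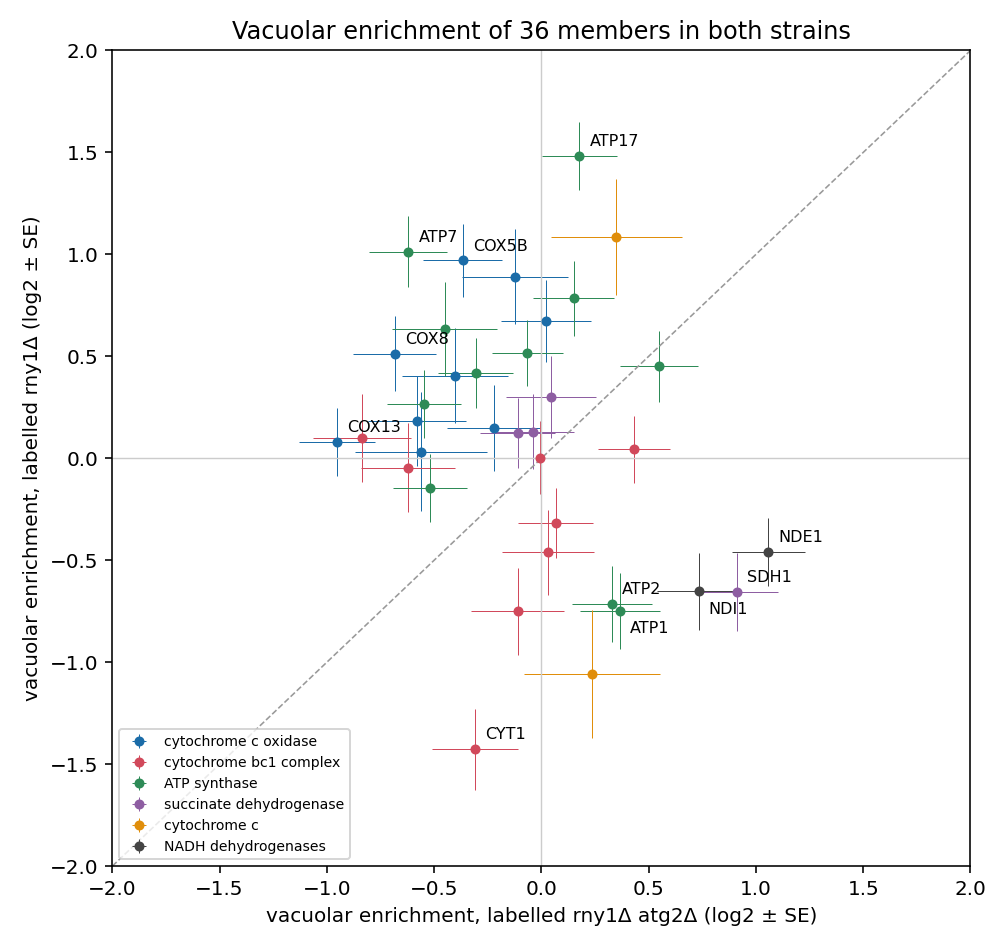
Vacuolar enrichment of 36 members in the strain labelled *rny1*Δ (vertical axis) against that labelled as the double mutant (horizontal axis), in log2 with SE bars, coloured by complex. Members whose difference was called are named, and the dashed line marks equal enrichment, with *ATP7* farthest above it, at a difference of 1.63, and *SDH1* farthest below it, at −1.57.

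Cytochrome c oxidase mRNAs lay largely on one side in each strain. All 9 were above 0 in *rny1*Δ enrichment, with a median of 0.41, and 8 of 9 below 0 in the double mutant, with a median of −0.40. The difference was above 0 for all 9, with a median of 0.81 and 3 called. All 9 genes are shorter than 600 bases. The 984 genes tested of that length had medians of 0.75 in *rny1*Δ, −0.003 in the double mutant and 0.77 for the difference. As a share of counts, the 9 mRNAs held 0.195 and 0.190% of treated vacuole libraries labelled *rny1*Δ beside 0.130 and 0.157% of the lysates, and 0.0617 and 0.0711% of those labelled as the double mutant beside 0.124 and 0.127%. The vacuole values of the strains did not overlap. *COX5B* mRNA in the vacuole fraction was at 43.6 CPM before and 262 and 254 CPM after treatment in *rny1*Δ, and at 39.1 CPM before and 111 and 90.00 CPM after in *rny1*Δ *atg2*Δ. It was thus above the treated lysates in one strain and below them in the other, and the difference was 1.34 ± 0.26 (edgeR, adjusted p = 0.0011). *COX5A*, at 0.67 ± 0.20 and 0.02 ± 0.21, was not called. *COX8*, a small membrane subunit, was at 43.3 CPM before and 119.7 and 129.7 CPM after treatment in *rny1*Δ, and at 42.5 CPM before and 104 and 96.5 CPM after in *rny1*Δ *atg2*Δ. In the vacuole fraction it was at 45.9 CPM before and 183 and 194 CPM after treatment in *rny1*Δ, and at 44.02 CPM before and 61.8 and 81.4 CPM after in *rny1*Δ *atg2*Δ. The difference for *COX8* was 1.20 ± 0.27. *COX13* was at 48.6 CPM before and 254 and 250.4 CPM after treatment in *rny1*Δ, and at 47.7 CPM before and 239.5 and 235 CPM after in *rny1*Δ *atg2*Δ. Its vacuole fraction level was at 40.4 CPM before and 220.4 and 223 CPM after treatment in *rny1*Δ, and at 38.4 CPM before and 95.9 and 111 CPM after in *rny1*Δ *atg2*Δ. *COX13* was close to the lysate level in the fraction labelled *rny1*Δ and well below it in the other, a difference of 1.03 ± 0.24 that was not called with DESeq2 or without either *rny1*Δ replicate.

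The ATP synthase was divided by subunit. *ATP7*, part of the stator, was at 104 CPM before and 172 and 196 CPM after treatment in *rny1*Δ, and at 94.1 CPM before and 171 and 173 CPM after in *rny1*Δ *atg2*Δ. Vacuole-fraction RNA of the gene was at 85.4 CPM before and 305 and 306 CPM after treatment in *rny1*Δ, and at 76.7 CPM before and 88.5 and 103 CPM after in *rny1*Δ *atg2*Δ. Its difference, 1.63 ± 0.25 (edgeR, adjusted p = 0.00029), was the largest of the members. *ATP17* mRNA in the vacuole fraction was at 63.5 CPM before and 274 and 248 CPM after treatment in *rny1*Δ, and at 57.8 CPM before and 81.4 and 77.1 CPM after in *rny1*Δ *atg2*Δ. It was above the lysate level in treated *rny1*Δ fractions and below it in growing ones, with an enrichment of 1.48 ± 0.17 and a difference of 1.31 ± 0.24. *ATP1* was at 553 CPM before and 2106 and 2130.4 CPM after treatment in *rny1*Δ, and at 505 CPM before and 1782 and 1833 CPM after in *rny1*Δ *atg2*Δ. In the vacuole fraction it was at 682 CPM before and 1522 and 1588 CPM after treatment in *rny1*Δ, and at 626 CPM before and 3036 and 2722 CPM after in *rny1*Δ *atg2*Δ. *ATP1* thus lay below the lysate in treated fractions labelled *rny1*Δ and above it in those labelled as the double mutant, a difference of −1.11 ± 0.26. *ATP2* was at 652 CPM before and 2921 and 3059.5 CPM after treatment in *rny1*Δ, and at 590.1 CPM before and 2508 and 2522 CPM after in *rny1*Δ *atg2*Δ. Its vacuole fraction level was at 718 CPM before and 1974 and 2041 CPM after treatment in *rny1*Δ, and at 656 CPM before and 3509 and 3510.1 CPM after in *rny1*Δ *atg2*Δ. *ATP2* showed the same order, with a difference of −1.04 ± 0.26, and the calls of *ATP1* and *ATP2* were lost when either replicate of the double mutant was left out.

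*SDH1* and the NADH dehydrogenases *NDE1* and *NDI1*, genes of 1923, 1683 and 1542 bases, had the lowest differences. *SDH1* mRNA in the vacuole fraction was at 69.4 CPM before and 405 and 459.5 CPM after treatment in *rny1*Δ, and at 59.1 CPM before and 1314 and 1213 CPM after in *rny1*Δ *atg2*Δ. It was below the treated lysate for *rny1*Δ and above it for the double mutant, and the difference was −1.57 ± 0.27 (edgeR, adjusted p = 0.00058). The other 3 succinate dehydrogenase subunits were at 0.17 to 0.26. *NDE1* mRNA in the vacuole fraction was at 102 CPM before and 134 and 149 CPM after treatment in *rny1*Δ, and at 103 CPM before and 339 and 356 CPM after in *rny1*Δ *atg2*Δ. Its difference was −1.52 ± 0.24, with the treated level far below the lysate for *rny1*Δ and near the lysate for the double mutant. *NDI1* was at 87.4 CPM before and 467 and 496 CPM after treatment in *rny1*Δ, and at 73.9 CPM before and 454 and 438 CPM after in *rny1*Δ *atg2*Δ. Vacuole-fraction RNA of the gene was at 53.3 CPM before and 168 and 206 CPM after treatment in *rny1*Δ, and at 46.8 CPM before and 479 and 452 CPM after in *rny1*Δ *atg2*Δ. The *NDI1* difference was −1.39 ± 0.27. Both NADH dehydrogenases were lower in the vacuole fraction than in the lysate of growing cells too, whichever the strain.

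Of the bc1 complex only *CYT1* was called. *CYT1* was at 70.5 CPM before and 398 and 509 CPM after treatment in *rny1*Δ, and at 67.4 CPM before and 389.9 and 369.5 CPM after in *rny1*Δ *atg2*Δ. In the vacuole fraction it was at 73.3 CPM before and 169 and 181 CPM after treatment in *rny1*Δ, and at 68.5 CPM before and 316 and 302 CPM after in *rny1*Δ *atg2*Δ. It was near the lysate in growing cells and well below it in treated cells labelled *rny1*Δ, with an enrichment of −1.43 ± 0.20 there and −0.31 ± 0.20 in the other strain. The difference of −1.12 ± 0.28 lost its call without the shallow library, at −1.14 with an adjusted p of 0.012 in edgeR. The 2 cytochromes c again parted: *CYC1* mRNA in the vacuole fraction was at 21.4 CPM before and 46.6 and 44.9 CPM after treatment in *rny1*Δ, and at 18.5 CPM before and 17.8 and 17.1 CPM after in *rny1*Δ *atg2*Δ, and *CYC7* was at 3.45 CPM before and 32.8 and 40.5 CPM after treatment in *rny1*Δ, and at 2.82 CPM before and 98.9 and 111 CPM after in *rny1*Δ *atg2*Δ. *CYC7* held 41.3 and 47.4% of the pair's counts in treated vacuole fractions labelled *rny1*Δ and 84.8 and 86.7% in those labelled as the double mutant, the last from 52 and 8 counts. Enrichment of *CYC1* was 1.08 ± 0.28 and of *CYC7* −1.06 ± 0.31 in *rny1*Δ, and neither difference between the strains was called. Both calls were lost without the shallow library.

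Enrichment varied with gene length, and the members are short, with a median of 475.5 bases against 1224 for all genes tested. Over 36 members, the Spearman correlation of the difference with gene length was −0.54, and over all 5753 genes −0.52, as a description across genes that share libraries. Among members under 600 bases the median difference was 0.65 (23 members, beside 0.77 for 984 genes), from 600 to under 1200 bases 0.17 (7 members, beside 0.44 for 1830 genes), and from 1200 bases −1.25 (6 members, beside −0.33 for 2939 genes). The 6 long members, *ATP1*, *ATP2*, *COR1*, *NDE1*, *NDI1* and *SDH1*, were all below 0. With the length trend of all genes as an offset in each library, 0 members were called above 0 and 4 below, namely *CYT1* at −1.38, *NDE1* at −1.27, *SDH1* at −1.22 and *NDI1* at −1.21. The correlation over all genes was then −0.06 and over the members −0.46. The member median of the difference was −0.04 in place of 0.48, beside 0.09 for all genes. In *rny1*Δ enrichment the offset left 0 members enriched and 3 depleted, with a member median of −0.28 beside 0.13 for all genes. The share of all genes called with the offset is not given, so these counts cannot be set against it. What part length plays in the calls without the offset was not tested further.

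**Figure D4:**
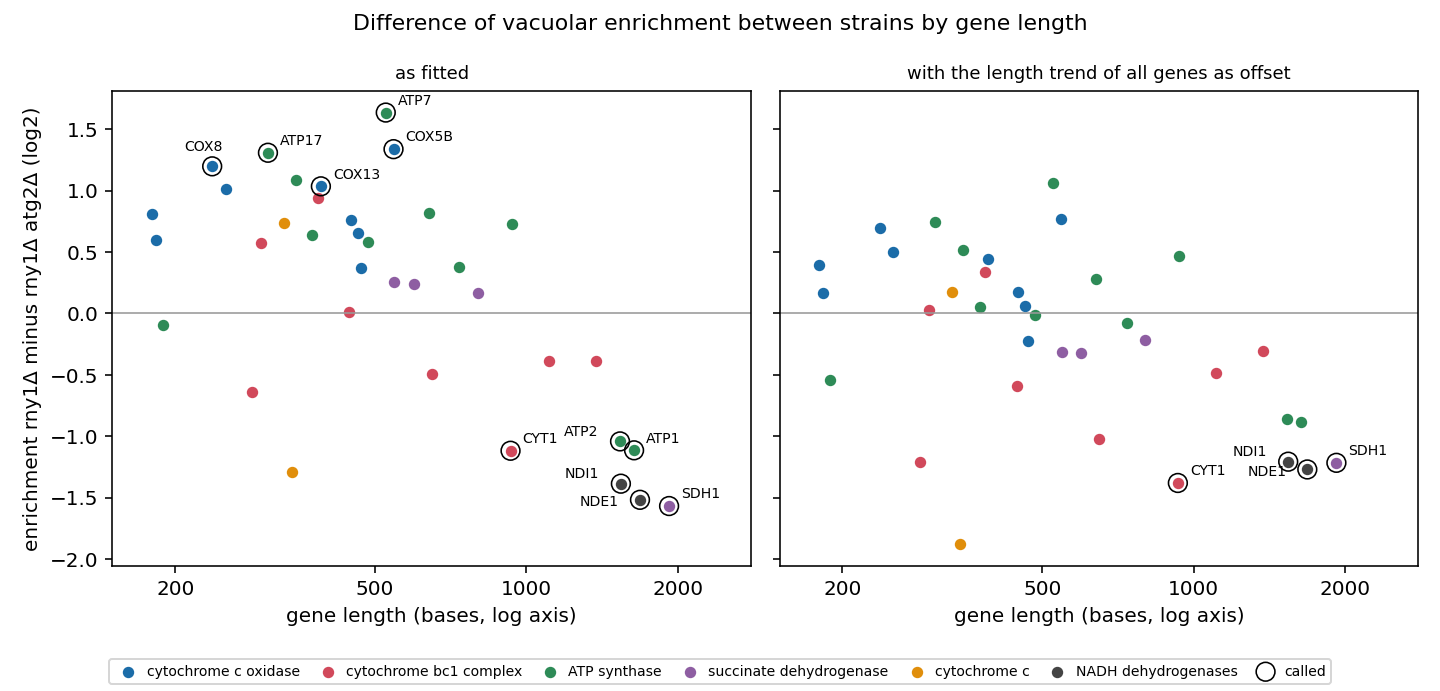
Difference of vacuolar enrichment between the strains (log2, vertical axis) against gene length (bases, log axis) for 36 members, as fitted on the left and with the length trend of all genes as an offset on the right, with called members circled and named. On the left the 5 members called above 0 are shorter than 600 bases, and on the right only *CYT1*, *NDE1*, *NDI1* and *SDH1* are called. The share of all genes called is not given for the right panel.

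The 7 mitochondrially encoded subunits of the same complexes (*COX1*, *COX2*, *COX3*, *COB*, *ATP6*, *ATP8* and *OLI1*) gave other values than their nuclear partners. All 7 rose in the lysates of both strains, with medians of 2.44 and 1.95, but 0 of 7 were called in WT at 1, 2 or 3 h, where the medians were −0.23, −0.21 and 0.52. Lysate and WT RNA were prepared differently, and the part of preparation in this contrast was not tested. In the vacuole fractions all 7 were below the lysate in growing and treated cells of both strains. Their enrichment was called for 6 of 7 in both strains, with medians of 1.48 for *rny1*Δ and 4.09 for the double mutant, and the difference was below 0 for all 7 and called for 6, with a median of −2.48. Mitochondrially encoded RNA of 19 genes made up 0.0178 and 0.0170% of growing vacuole libraries of the 2 strains, 0.307 and 0.369% of treated ones labelled *rny1*Δ and 0.877 and 1.28% of those labelled as the double mutant. It moved between the strains with the 6 nuclear members called below 0, and its part in those calls was not tested.

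Ribosome footprints on all 37 members were above the mean of the growing libraries at 2 and 3 h, but none was called. The medians were 0.65, 0.97 and 1.29 at 1, 2 and 3 h, beside 0.05, 0.04 and 0.04 over all 5625 genes tested. In edgeR 0 members were called at each time, and 0.160% of all genes rose and 5.92% fell at 1 h, with 0% in either direction at 2 and 3 h. At an unadjusted p under 0.05, 2, 1 and 14 members passed, and DESeq2 called 0 members at each time. Over all genes 1441, 937 and 959 passed at that p in edgeR, and DESeq2 called 30 up and 436 down, 2 and 307, and 0 and 198. The footprint fit had 1 residual degree of freedom, so 0 calls do not show an absence of change. The growing libraries differed: footprint library 2 was above library 1 for 37 of 37 members, by a median of 1.33, from 0.09 for *NDE1* to 2.17 for *QCR9*, while over all genes the median was 0.00 with an SD of 0.86. RNA of the same 2 cultures differed by a median of −0.03 over the members. Against growing library 1, 29, 35 and 36 members were at least 1 higher on the log2 scale at 1, 2 and 3 h, as were 22.3, 18.4 and 19.4% of all genes, and against library 2, 2, 0 and 5, as were 9.56, 4.59 and 5.28%. The size of the footprint change of the members thus depended on which growing library served as reference.

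**Figure D5:**
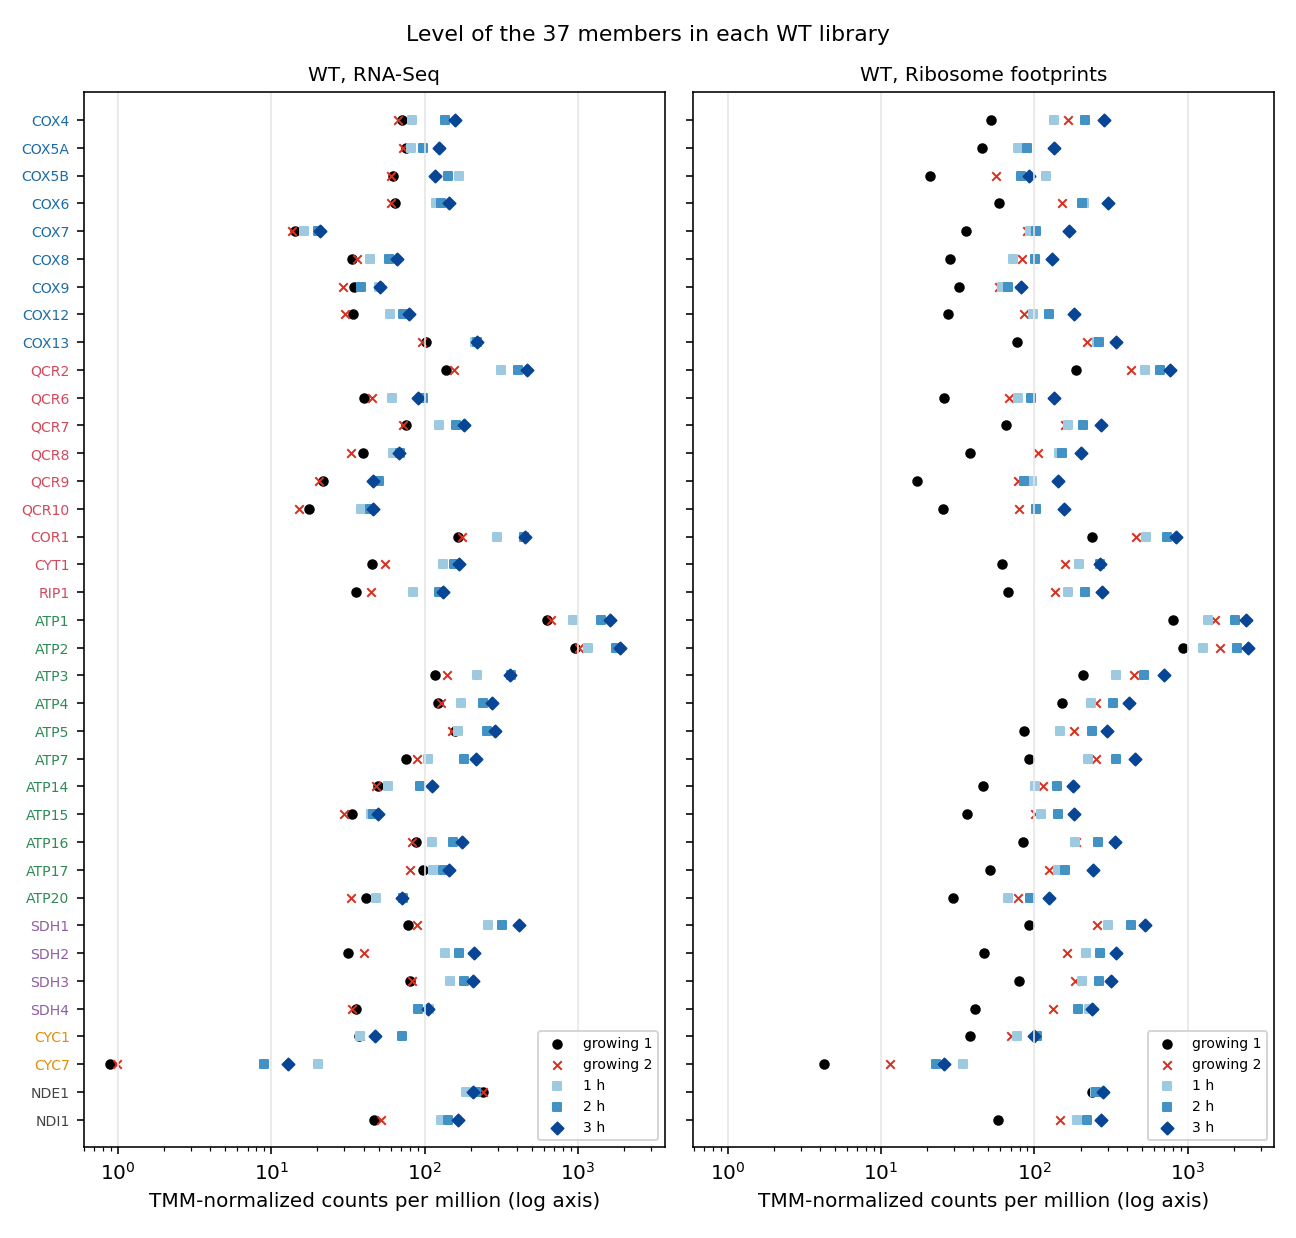
TMM-normalized CPM (log axis) of the 37 members in each WT library, RNA-Seq on the left and ribosome footprints on the right. The 2 growing RNA-Seq libraries lie close together, growing footprint library 1 lies left of library 2 for every member, and at 3 h all members lie right of both growing footprint libraries.

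By the mean of both growing libraries, *CYC7* and *COX12* footprints had the highest and *NDE1* and *COX9* the lowest change at 3 h. *CYC7* footprints were at 4.23 and 11.5 CPM in growing cells and 34.1, 22.7 and 25.8 CPM at 1, 2 and 3 h. Footprints on *COX12*, an oxidase subunit on the intermembrane side, were at 27.5 and 85.3 CPM in growing cells and 97.6, 124 and 182 CPM at 1, 2 and 3 h. All treated values of *CYC7* and *COX12* lay above both growing ones, with changes of 1.77 ± 0.53 and 1.70 ± 0.62 at 3 h. *NDE1* footprints were at 236 and 250.4 CPM in growing cells and 248, 254 and 282 CPM at 1, 2 and 3 h. *COX9* footprints were at 32.5 and 58.9 CPM in growing cells and 61.7, 66.97 and 82.1 CPM at 1, 2 and 3 h. *NDE1* hardly moved, at 0.21 ± 0.47, and the 1 h value of *COX9* barely passed that of growing library 2.

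Ribosome association, the change of footprints relative to that of mRNA, was called for 0 of 37 members at 1, 2 and 3 h in edgeR and in DESeq2, and edgeR called 0% of all 5936 genes. The fit had 2 residual degrees of freedom and single treated libraries, so 0 calls do not show that association stayed the same. At an unadjusted p under 0.05, 1, 0 and 1 members and 250, 252 and 570 of all genes passed in edgeR, and DESeq2 called 4, 1 and 2 of all genes. Member medians were −0.33, −0.23 and 0.02, beside −0.14, −0.12 and −0.05 for all genes. *CYC7* was lowest at 3 h, −2.03 ± 0.70, its mRNA having gone up more than its footprints. *SDH2* was next, at −0.94 ± 0.95, with footprints that were at 46.8 and 163 CPM in growing cells and 215, 268 and 338 CPM at 1, 2 and 3 h, and all 4 succinate dehydrogenase mRNAs were below 0. *COX7*, a small oxidase subunit, and *ATP17* were highest, at 0.76 ± 0.72 and 0.67 ± 0.71. *COX7* mRNA was at 14.3 and 13.5 CPM in growing cells and 16.3, 20.3 and 20.7 CPM at 1, 2 and 3 h, and its footprints were at 35.9 and 90.2 CPM in growing cells and 94.00, 102 and 169 CPM at 1, 2 and 3 h. *ATP17* mRNA was at 97.3 and 79.9 CPM in growing cells and 113, 131 and 143 CPM at 1, 2 and 3 h, and its footprints were at 51.3 and 124 CPM in growing cells and 142, 159 and 240.4 CPM at 1, 2 and 3 h. Without growing footprint library 1 alone, 10, 8 and 4 members fell at 1, 2 and 3 h and 0 rose, where 5.51, 5.32 and 6.23% of all genes fell and 0.708, 1.60 and 3.66% rose. Without library 2 alone, 1, 1 and 13 members rose and 0 fell, where 2.31, 2.48 and 5.81% of all genes rose and 3.66, 2.59 and 4.16% fell, and the value of *SDH2* at 3 h turned to 0.21. In growing cells the level of association, log2 of footprints per codon over mRNA per codon, had a member median of 0.22 in library 1 and 1.58 in library 2, beside 0.20 and 0.27 over all genes, for the 36 members with enough counts. *COX5B* was lowest and *COX7* highest in both. Over 37 members the association change at 3 h had a Spearman correlation of −0.65 with coding length, beside −0.52 over all genes, and 0.06 and −0.05 with the length offset.

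Related genes gave a mixed picture. Among 9 other subunits and inhibitors, 4 rose in WT at 3 h and the same number in the lysates of each strain: *NDE2*, the second external NADH dehydrogenase, by 5.38 ± 0.24, *COX26*, an oxidase supercomplex subunit, by 6.05 ± 0.24, and *INH1* and *STF1*, inhibitors of the ATP synthase's hydrolysis, by 2.47 ± 0.15 and 3.51 ± 0.18 in lysates labelled *rny1*Δ. *NDE2* at 3 h in WT changed by 3.50 ± 0.16, unlike *NDE1*. Of 28 assembly factors tested, 9 rose and 3 fell in lysates labelled *rny1*Δ, and 11 rose and 2 fell in those labelled as the double mutant, with medians of 0.65 and 0.73, and of 29 in WT 6 rose and 1 fell at 3 h, with a median of 0.26. Of 6 regulators 4 rose in lysates labelled *rny1*Δ, 3 in those labelled as the double mutant and 1 in WT at 3 h. For comparison, 21.3% of all genes rose and 22.9% fell in lysates labelled *rny1*Δ. The shares were 23.4 and 23.9% in those labelled as the double mutant, and 11.7 and 15.9% in WT at 3 h. *HAP4*, the activating subunit of the Hap complex, changed by 2.63 ± 0.15, 1.82 ± 0.15 and, in WT at 3 h, 1.54 ± 0.15. *HAP4* mRNA was depleted from the vacuole fraction labelled *rny1*Δ, at −1.74 ± 0.19, and at 0.31 ± 0.20 in the other strain, with a difference of −2.04 ± 0.28 (edgeR, adjusted p = 0.00014).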

How the data were processed

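RNA-Seq and ribosome footprint counts of 22 libraries were analysed. The authors deposited whole-number counts of reads per gene, not normalized, made per the submitters' processing notes with CASAVA 1.8, TopHat2 2.0.9, Bowtie2 2.1.0, STAR 2.7.0a and HTSeq 0.6.1 on sacCer3. In the HTSeq output 18.2 to 32.5% of reads had no feature, 0.410 to 0.654% were ambiguous and 29.4 to 60.8% were not unique, and these were left out of library sizes and tests, as were genes that code for no protein. The other deposited column, the codons counted per gene, was used for TPM, which need a length. It matched the annotated span of the gene, from start to end, less 10 codons in 5673 of 6005 genes. Gene names and coordinates came from RefSeq's annotation.

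After a filter that kept genes whose counts reached 10 over a fit's libraries, tests were run in edgeR 4.0.16 (R 4.3.3, limma 3.58.1) by the quasi-likelihood test with TMM scaling and Benjamini-Hochberg adjustment over all genes. The vacuole experiment was 1 fit of 12 libraries in 8 groups, with enrichment as an interaction of fraction and treatment. WT RNA-Seq and footprints were fitted apart, and together for ribosome association, where time points without replicate took their spread from the growing cultures. An mRNA was called at a log2 change of 1 or more in size and an adjusted p under 0.01. CPM have a scaling by TMM, with a prior count of 2 on the log scale. The floor of a gene without counts is 3 counts. P-values measure the spread between replicate cultures, which the study describes as independent. In the vacuole experiment that spread came from the treated replicates alone, since each growing group had 1 library. Tables were handled in Python 3.11.15 (numpy 2.4.6, pandas 2.3.3, scipy 1.17.1, matplotlib 3.10.9).

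Members named with all libraries were the 2 highest and 2 lowest of each main comparison, the isoform pairs and the members called in the enrichment difference. Members and gene lists were chosen with earlier results of these data known. Of the alternatives, 12 were planned, among them DESeq2 1.42.0, other filters, a length offset (lowess span 0.5), a replicate block and leaving out each replicate, and 3 were chosen after seeing the data, namely library totals and leaving out the shallow vacuole library or 1 growing footprint library.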

Additional observations from a re-analysis of the deposited data

Results flagged for a closer look

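For 11 members the enrichment in the vacuole fraction differed between the strains labelled *rny1*Δ and *rny1*Δ *atg2*Δ. The test was the interaction term in edgeR, with adjustment over all genes. Of all genes, 9.26% were called above 0 and 8.03% below. With the length trend as an offset only *CYT1*, *NDE1*, *NDI1* and *SDH1* stayed called, but the share of all genes called with it is not given. Fewer members were called without the first double mutant replicate. Above 0 lay *ATP7* at 1.63, from enrichments of 1.01 and −0.62, *COX5B* at 1.34, from 0.97 and −0.37, *ATP17* at 1.31, from 1.48 and 0.18, *COX8* at 1.20, from 0.51 and −0.68, and *COX13* at 1.03, from 0.08 and −0.95. Below 0 lay *SDH1* at −1.57, from −0.66 and 0.91, *NDE1* at −1.52, from −0.46 and 1.06, *NDI1* at −1.39, from −0.65 and 0.73, *CYT1* at −1.12, from −1.43 and −0.31, *ATP1* at −1.11, from −0.75 and 0.37, and *ATP2* at −1.04, from −0.71 and 0.33. Of the 6 below 0, *CYT1* alone was below 0 in both strains.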

How the results depend on the processing

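Numbers of members called are given here as total, with up and down in brackets. With library totals they were 8 (4 and 4) and 7 (0 and 7) for the vacuole to lysate ratio of *rny1*Δ and *rny1*Δ *atg2*Δ, 17 (15 and 2) for the enrichment difference, and 28 and 35 for WT mRNA at 1 and 2 h. The same scaling moved the median of all genes to 0.42, 0.49 and 0.45 in WT footprints at 1, 2 and 3 h, with 0 members called. With the length offset they were 8 (0 and 8), 2 (0 and 2), 3 (0 and 3) and 4 (0 and 4) for the 2 ratios, *rny1*Δ enrichment and the difference. The share of all genes called with that offset is not given. For *rny1*Δ enrichment DESeq2 size factors gave 3 (1 and 2), DESeq2's test 2 (1 and 1) and leaving out the shallow library 3 (2 and 1). All 10 WT libraries in 1 fit left 1, 0 and 0 members in WT mRNA, and footprints at 1 h had 1 with no filter and 1 with at least 10 counts in every library. Without growing footprint library 1 alone association had 10, 8 and 4 members called at 1, 2 and 3 h, and without library 2 alone 1, 1 and 13. Leaving out each replicate in turn gave 3 to 5 for *rny1*Δ enrichment, 2 to 5 for the *rny1*Δ *atg2*Δ ratio, 0 to 2 for *rny1*Δ *atg2*Δ enrichment and 2 to 13 for the difference, and the lowest value was that without the first *rny1*Δ *atg2*Δ replicate in these 4 results. Signs turned for *CYC1* in *rny1*Δ lysates, at −0.040 with the length offset and between −0.17 and 0.20 with either *rny1*Δ replicate left out, for *NDE1* in WT mRNA at 3 h, at 0.52 with library totals, and for association at 3 h of *COX7*, at −0.0074 with the length offset, and *SDH2*, at 0.21 without footprint library 2 alone. The cause was not tested. Of the counts of called members under the alternatives, 139 stayed within 1.5 times and 28 did not. The share of all genes called is not given for fits without a replicate or the shallow library, nor for all 10 WT libraries in 1 fit. Member counts of those fits cannot be set against it.

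Replicate numbers are not stated to pair libraries, and replicate deviations correlated at 0.19, 0.05 and 0.10. With a replicate block 13 members (7 and 6) were called in the enrichment difference and 5 in *rny1*Δ enrichment, and no count moved by over 1.5 times. The share of all genes called with the block is not given. Precision was limited by 1 growing library a strain and fraction, by 535462 counts in 1 vacuole library, by single WT time points and by growing footprint libraries that lay apart.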

Other observations

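The head of the ATP synthase holds more alpha (*ATP1*) and beta (*ATP2*) than gamma (*ATP3*) subunits, and the WT libraries allow their levels per codon to be set against each other within a library. *ATP1* mRNA stood to *ATP3* mRNA at 3.04 and 2.696 in growing cells and 2.35, 2.19 and 2.50 at 1, 2 and 3 h, and *ATP1* footprints to *ATP3* footprints at 2.16 and 1.90 in growing cells and 2.24, 2.22 and 1.93 at 1, 2 and 3 h. For *ATP2* the mRNA ratio was 4.94 and 4.34 in growing cells and 3.16, 2.92 and 3.11 at 1, 2 and 3 h, and the footprint ratio 2.69 and 2.20 in growing cells and 2.25, 2.43 and 2.13 at 1, 2 and 3 h. In growing cells the mRNA ratios of both lay above the footprint ratios in both cultures, and the mRNA ratios of both at all 3 treated times lay below both growing values. The delta subunit, *ATP16*, had mRNA ratios of 1.51 and 1.18 in growing cells and 1.02, 0.834 and 0.974 at 1, 2 and 3 h and footprint ratios of 0.817 and 0.844 in growing cells and 1.09, 1.01 and 0.956 at 1, 2 and 3 h. The epsilon subunit, *ATP15*, had mRNA ratios of 1.64 and 1.22 in growing cells and 1.15, 0.715 and 0.789 at 1, 2 and 3 h and footprint ratios of 1.00 and 1.30 in growing cells and 1.85, 1.58 and 1.47 at 1, 2 and 3 h, so that its footprint ratio lay below its mRNA ratio in growing culture 1 and above it in growing culture 2 and at all 3 treated times. No test was made, since treated time points have 1 library each. The genes also differ in length, with 53 counted codons for *ATP15*, 302 for *ATP3* and 536 for *ATP1*. Over all genes the association change at 3 h had a Spearman correlation of −0.52 with coding length. The part of length in these ratios was not tested.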
